A study of Mus musculus with 4 samples.

Results

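Fmo1, Fmo2 and Inmt are 3 of the 13410 genes with a single symbol on the array platform, selected on their own log ratios, which were large and above 0 on every array of the series. Fmo1 (Entrez gene 14261) and Fmo2 (55990) encode flavin-containing monooxygenases. Inmt (21743) encodes indolethylamine N-methyltransferase, which is a methyltransferase and not a monooxygenase. The series holds 4 two-colour arrays, each carrying amplified lung RNA of 1 bleomycin-treated A/J mouse together with amplified RNA from 1 pool of control A/J lungs. Bleomycin is a DNA-damaging drug used to injure the lung, and A/J is an inbred mouse strain. The treated mice, numbered 1 to 4, form the only group, and the same pool served as the control on all arrays. The sources used here do not give the dose, route or time of treatment, the age of the mice or the number of mice in the pool.

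Flavin-containing monooxygenases sit in the membrane of the endoplasmic reticulum and use NADPH and oxygen to oxidise nitrogen and sulfur atoms in drugs and other foreign compounds. Fmo2 is the form best known from lung in many mammals, and Fmo1 is found in liver, kidney and lung of the mouse. Inmt moves a methyl group from S-adenosylmethionine to amines such as tryptamine and is abundant in lung. In bulk lung RNA, a change in the number of cells that express a gene and a change in RNA per cell cannot be told apart.

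Values are log ratios of the 2 channels, read as log2, with the median of each array set to 0, and errors are standard deviations (SD) between the 4 mice. Which RNA stands on top of the ratio is not stated. The title order makes the treated mouse the likelier numerator, but this is not settled, so the genes are described by their side of 0. All values would change sign together if the pool were on top. Fold sizes hold only for a log base of 2, which no source used here states. Pairs of arrays correlated between 0.453 (mice 2 and 3) and 0.858 (mice 3 and 4) over spots, so the arrays ran the same way, and mice 1 and 2 (0.729) also resembled each other more than they resembled mice 3 and 4. A ratio gives no level, so the tissue label could not be checked against the abundance of lung transcripts.

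RefSeq promoter windows (build GRCm38.p6) were matched by symbol for 2 of the 3 genes, Fmo2 and Inmt, and not for Fmo1. The stretches of 250 bases before the start of these 2 genes, whose mean ratios were the closest of any pair among the 3, are shown 5′ to 3′ on the minus strand. Fmo2 lies at chr1:162898759-162899008 and Inmt at chr6:55174991-55175240, and capitals mark a direct repeat.
Fmo2: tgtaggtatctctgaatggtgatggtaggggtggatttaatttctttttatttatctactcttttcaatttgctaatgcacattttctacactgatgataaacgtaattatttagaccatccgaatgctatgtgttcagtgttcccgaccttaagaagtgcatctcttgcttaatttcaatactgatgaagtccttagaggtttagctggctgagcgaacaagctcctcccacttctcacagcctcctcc
Inmt: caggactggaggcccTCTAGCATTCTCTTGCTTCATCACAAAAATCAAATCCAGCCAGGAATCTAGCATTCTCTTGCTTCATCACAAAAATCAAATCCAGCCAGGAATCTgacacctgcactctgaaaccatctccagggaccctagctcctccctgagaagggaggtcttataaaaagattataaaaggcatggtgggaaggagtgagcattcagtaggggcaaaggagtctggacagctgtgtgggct
In the Inmt stretch, a run of 49 bases occurred 2 times with an offset of 46 bases, so that the copies overlap at their edges, and the run began 235 and 189 bases before the start. An exact repeat of at least 49 bases was found in 105 of 32851 such windows (0.32%). In the Fmo2 stretch the longest exact repeat had 8 bases. The Inmt stretch held TATAAA, the letters of a TATA box, 80 and 69 bases before the start, and the Fmo2 stretch held none on either strand. TATAAA was present in 12.4% of all windows. Neither stretch held CCAAT (33.8% of windows), TGTTTAC, a forkhead factor motif (3.17%), GAANNTTC, a heat shock factor motif (6.69%), or CTCAAG, a motif of the lung factor Nkx2-1 (13.3%), searched on both strands. Base composition also differed, with 39.6% G and C in the Fmo2 stretch and 48% in the Inmt stretch. RefSeq lists a second start for Fmo2, whose stretch held TGTTTAC once, on the strand opposite to the gene. These matches describe letters only.

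Fmo2 had the most even ratio of the 3 genes. Mice 1 and 2 had log ratios of 1.70 and 1.74, and mice 3 and 4 had 1.94 and 1.86. The 4 values span 0.242, and the mean was 1.81 ± 0.11 (SD, n = 4), a 3.50-fold ratio. On single arrays this stood for ratios of 3.25-, 3.33-, 3.84- and 3.63-fold. Fmo2 was represented by 2 probes, of which 1 had a value on all 4 arrays and the other on 0, so agreement between probes could not be judged.

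Inmt, the methyltransferase, had log ratios of 1.34 and 1.48 in mice 1 and 2, and of 2.26 and 2.06 in mice 3 and 4. Mice 3 and 4 thus lay above mice 1 and 2 with no overlap. The mean was 1.78 ± 0.45 (SD, n = 4), a 3.44-fold ratio, and came from 1 probe.

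Fmo1 varied most between mice. It had log ratios of 1.05 and 1.25 in mice 1 and 2, 2.55 in mouse 3 and 1.90 in mouse 4. The ratio was thus 2.07-fold in the lowest mouse and 5.86-fold in the highest, and mice 3 and 4 again lay above mice 1 and 2. The mean was 1.69 ± 0.68 (SD, n = 4), a 3.22-fold ratio, also from 1 probe. Without mouse 3 the mean was 1.40, and without mouse 1 it was 1.90.

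Because the genes were chosen for these ratios, their means are a description and were not tested. By mean log ratio, Fmo2, Inmt and Fmo1 held places 3, 4 and 5 of 8384 genes with at least 3 values. The neighbours in this order were Pabpc1 at 1.90 in place 2 and Hsph1 at 1.63 in place 6. All 3 genes exceeded a log ratio of 1 on each array, as did 26 of the 6057 genes with 4 values (0.429%), and this is the property they were chosen for. On single arrays the places among these 6057 genes moved. Fmo2 stood at places 10, 4, 16 and 8 in mice 1 to 4. Inmt stood at places 38, 16, 6 and 3, and Fmo1 at places 105, 44, 2 and 5. The order of the 3 genes was Fmo2, Inmt, Fmo1 in mice 1 and 2 and was turned to Fmo1, Inmt, Fmo2 in mouse 3. In mouse 4 Inmt was highest, and Fmo1 exceeded Fmo2 by 0.04. The means of the 3 genes differ from each other by less than the SD of Fmo1 or Inmt.

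**Figure D1:**
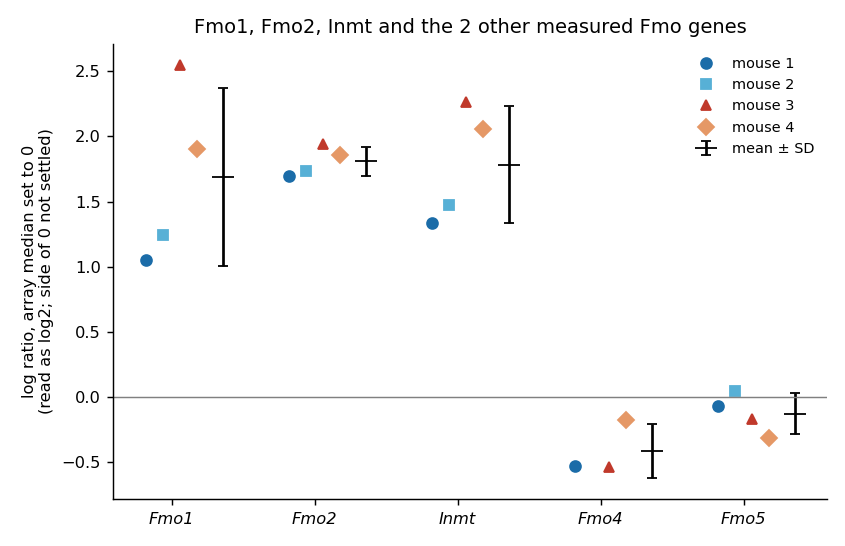
Log ratio (read as log2, array median set to 0) of Fmo1, Fmo2, Inmt, Fmo4 and Fmo5, with 1 symbol per mouse and the mean ± SD in black. Fmo1, Fmo2 and Inmt lie above 1 on all arrays, while the means of Fmo4 and Fmo5 are below 0. Fmo4 has no value in mouse 2.

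The spread between mice was not used to choose the genes, although an even gene meets a rule on every array more easily. The SD of Fmo2 stood at percentile 24.0 of the 6057 genes with 4 values, whereas those of Inmt and Fmo1 stood at percentiles 90.1 and 97.1. Among the 30 genes with the highest means, SDs ran from 0.112 to 1.19 with a median of 0.324, and 0 of them had a smaller SD than Fmo2. The position of Fmo2 depended on the scale of the arrays. When arrays were brought to equal spread, its values became 1.64, 1.66, 1.63 and 2.40 in mice 1 to 4. Its SD then rose to 0.38, at percentile 85.8. Mouse 4, which had the narrowest array (median absolute deviation over spots of 0.190, against 0.254 to 0.292 in the other mice), was then the highest mouse for all 3 genes.

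**Figure D2:**
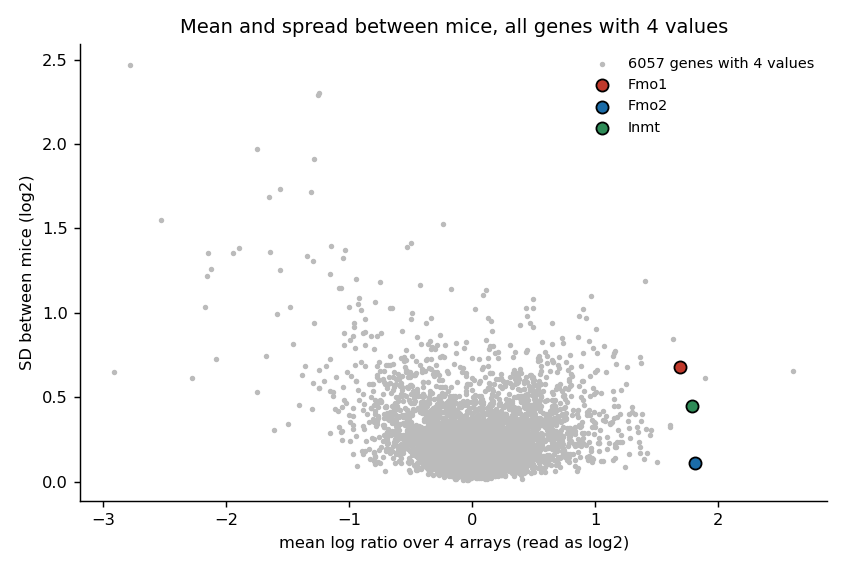
Mean log ratio over the 4 arrays (horizontal, read as log2) and SD between mice (vertical) of the 6057 genes with 4 values, in grey, with Fmo1, Fmo2 and Inmt in colour. The 3 genes have similar means, from 1.69 to 1.81, and SDs of 0.68, 0.11 and 0.45 for Fmo1, Fmo2 and Inmt.

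The mice fell in the same order for all 3 genes, from mouse 1 through mice 2 and 4 to mouse 3. Of the 6057 genes with 4 values, 544 (8.98%) had this order, as did 40 (6.94%) of the 576 among them that passed limma above 0, and mice 1 and 2 were both below mice 3 and 4 in 1933 (31.9%). The mean of mice 3 and 4 exceeded that of mice 1 and 2 by 1.08 for Fmo1, by 0.75 for Inmt and by 0.18 for Fmo2, against a median difference of 0.03 over all genes with 4 values. The labels name no batch that would pair the mice, and these pairs were seen in the data, so no test was made. With the arrays scaled, the order from lowest to highest was mouse 1, 2, 3 and 4 for Fmo1 and Inmt but mouse 3, 1, 2 and 4 for Fmo2, so that the shared order was lost.

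**Figure D3:**
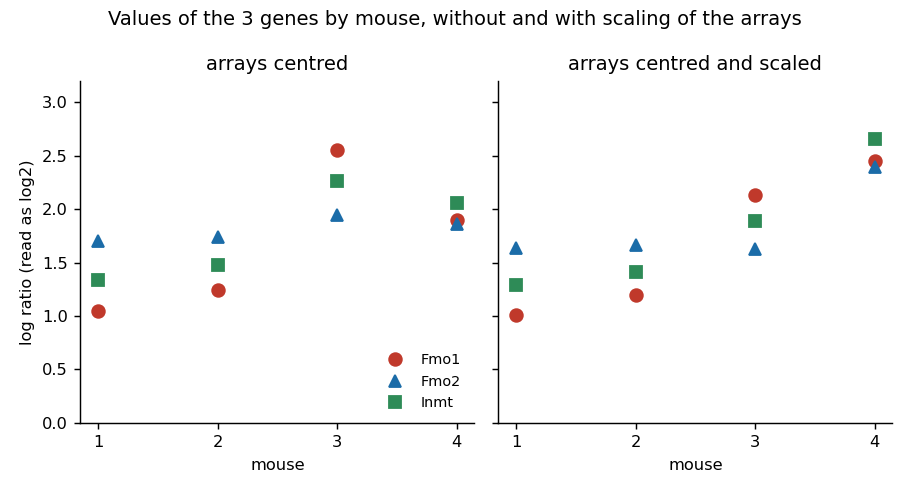
Log ratios (read as log2) of Fmo1, Fmo2 and Inmt in mice 1 to 4, with arrays centred (left) and centred and scaled to equal spread (right). Mouse 3 is highest for all 3 genes on the left and mouse 4 on the right, and Fmo2 varies least in both panels.

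Of the 4 measured genes of the Fmo family, Fmo1 and Fmo2 had means above 0 and Fmo4 and Fmo5 means below 0. Fmo4, a family member in the same gene cluster on chromosome 1, had log ratios of -0.53, -0.54 and -0.18 in mice 1, 3 and 4. Its mean was -0.41 ± 0.21 (SD, n = 3; limma adjusted p = 0.0729). Fmo5, on chromosome 3, had -0.07, 0.05, -0.16 and -0.32 in mice 1 to 4, with a mean of -0.13 ± 0.15 (SD, n = 4; limma adjusted p = 0.340). Thus 0 of these 2 genes passed limma after Benjamini-Hochberg adjustment over all genes, and 1, Fmo4, had an unadjusted p under 0.05. On each array with values, both genes lay below Fmo1 and Fmo2. The choice of Fmo1 and Fmo2 for large ratios on all arrays places most genes below them, so this says little about Fmo4 or Fmo5.

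The genes around the 3 loci had lower ratios, but the choice of the 3 genes for large ratios places most genes below them. The lower ratios of these neighbours thus say little about the loci. Fmo1 and Fmo2 are adjacent among measured genes of chromosome 1, and the 5 measured genes on each side of either one held 1 other gene past the limma test. That was 4930558K02Rik, an uncharacterised gene below 0 at -0.65 ± 0.18 (SD, n = 4; limma adjusted p = 0.0142). Over all 8384 genes, 12.5% passed, 7.69% above and 4.81% below 0. Apart from each other, the neighbours of Fmo1 had means from -0.65 to 0.17 with a median of 0.004. Atp1b1, a sodium pump subunit gene and the farthest neighbour of Fmo2, had 0.33 ± 0.38 (SD, n = 4; limma adjusted p = 0.191). Around Inmt on chromosome 6, Aqp1 was the 1 of 10 neighbours to pass. This water channel gene of endothelium lies next to Inmt among measured genes. Aqp1 had log ratios of 1.18, 0.71 and 0.51 in mice 1, 2 and 4, with a mean of 0.80 ± 0.34 (SD, n = 3; limma adjusted p = 0.0374). Aqp1 was highest in mouse 1, where Inmt was lowest. Its call was lost whichever mouse was left out (limma adjusted p from 0.0570 to 0.0883). Aqp1 had no value in mouse 3, so the fit without that mouse used the same Aqp1 values. The 9 others had means from -0.33 to 0.03.

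**Figure D4:**
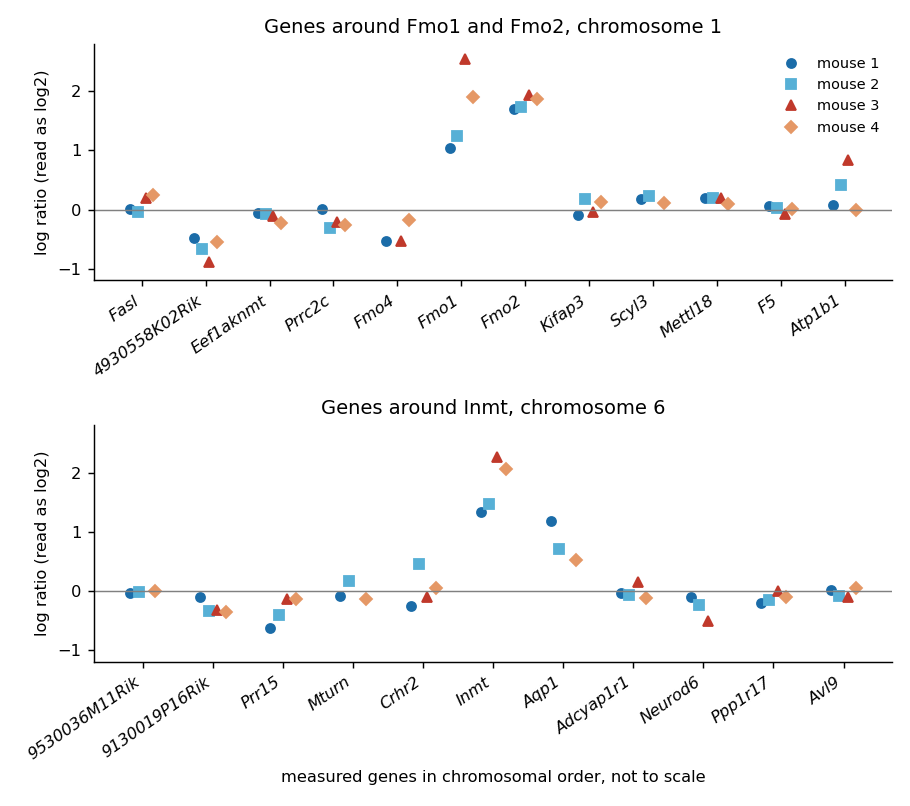
Log ratios (read as log2) of the measured genes around Fmo1 and Fmo2 (top, chromosome 1) and around Inmt (bottom, chromosome 6), in chromosomal order and not to scale, with 1 symbol per mouse. Fmo1, Fmo2 and Inmt stand above 1 in all mice, and the only other gene with a value above 1 is Aqp1 in mouse 1.

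Likeness was measured as the root mean square difference of log ratios over the 4 arrays, among the genes with 4 values. Fmo1 and Inmt were each other's nearest gene, at 0.248. The gene nearest to Fmo2 was also Inmt, at 0.291, while Fmo1 and Fmo2 were 0.509 apart. After Inmt, Fmo1 was nearest to Pabpc1 (0.348), Eef1a1 (0.354), Ddx17 (0.399) and Tmem100 (0.400). Pabpc1 encodes a poly(A)-binding protein, Eef1a1 a translation elongation factor and Ddx17 an RNA helicase. Those 3 genes and Tmem100 were higher in mice 3 and 4 than in mice 1 and 2. After Inmt, Fmo2 was nearest to Tmem100 (0.296), an endothelial gene, then 3021401C12Rik (0.346), Ormdl2 (0.358), a regulator of sphingolipid synthesis, and Hsd3b7 (0.395), a sterol-modifying enzyme gene. The 5 genes nearest to Inmt were Fmo1, Tmem100 (0.263), Pabpc1 (0.271), Fmo2 and Hsd3b7 (0.372). Hsd3b7 too was higher in mice 3 and 4 than in mice 1 and 2. Tmem100 was on all 3 lists, with log ratios of 1.47, 1.20, 1.87 and 1.89 in mice 1 to 4. So few genes have means this high that any list of near genes is drawn from the same few at the top. Nearness was measured over the same 4 arrays, so a shared difference between mice is partly built in.

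In the lists of related enzymes, 46 genes other than Fmo1, Fmo2 and Inmt were tested. Of these, 9 (19.6%) passed limma above 0 and 0 below, against 7.69% above and 4.81% below among all genes, and 14 had an unadjusted p under 0.05. Their median was 0.13, against 0.002 for all genes. These lists were chosen with earlier results of these data known, so the shares are a description and are not independent of the calls. The highest of their means was 1.17, for Cbr2. The 9 calls became 1 without mouse 1, 3 or 4 and with the random block of mice 1 and 2, and 3 and 4, and 3 without mouse 2.

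Among small-molecule methyltransferases, the class of Inmt, 1 of 8 tested genes passed above 0 and 0 below, with a median of -0.06. It was As3mt, which methylates arsenic, with log ratios of 0.24, 0.53, 0.58 and 0.91 in mice 1 to 4 and a mean of 0.57 ± 0.28 (SD, n = 4; limma adjusted p = 0.0354). As3mt was lost without mouse 2, 3 or 4 (limma adjusted p up to 0.0987) and with scaled arrays (0.0580). Of the others, Carnmt1, for carnosine, had a mean of 0.18 and Gnmt, for glycine, one of 0.13. Means at or below 0 were found for Mettl7b (-0.004), Pemt, for phosphatidylethanolamine (-0.11), Gamt, for guanidinoacetate (-0.14), Hnmt, for histamine (-0.26), and Tpmt, for thiopurines (-0.26). Nnmt and Pnmt had too few values.

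The methionine cycle supplies S-adenosylmethionine to Inmt. There, 1 of 8 tested genes passed above 0 and 0 below, with a list median of 0.09. This was the adenosine kinase gene Adk, which clears the adenosine made by the cycle, at 0.40 ± 0.16 (SD, n = 4; limma adjusted p = 0.0374). Adk was lost whichever mouse was left out (limma adjusted p up to 0.110). Among 5 tested genes that make, carry or break down tryptamine and serotonin, the serotonin transporter gene Slc6a4 passed above 0, at 0.43 ± 0.15 (SD, n = 4; limma adjusted p = 0.0282), and 0 passed below. Slc6a4 too was lost whichever mouse was left out (limma adjusted p up to 0.0905).

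Monooxygenases of the Fmo family need a flavin and NADPH. Of 8 tested genes that supply these or act in linked pathways, 3 passed above 0 and 0 below, with a median of 0.18. The riboflavin transporter gene Slc52a3 had a mean of 0.53 ± 0.19 (SD, n = 4; limma adjusted p = 0.0246). Taldo1, of the pentose phosphate pathway, had 0.56 ± 0.29, and the NAD kinase gene Nadk 0.42 ± 0.18 (SD, n = 4; limma adjusted p = 0.0395 and 0.0389). None of the 3 passed in every fit with 1 mouse left out: Nadk was lost in all 4 such fits, Slc52a3 without mouse 1, 2 or 4 and Taldo1 without mouse 1, 3 or 4.

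Among 16 tested genes of other oxidative drug enzymes, 3 passed above 0 and 0 below, with a median of 0.17. The cytochrome P450 gene Cyp2b10 had log ratios of 1.09, 0.98, 1.08 and 0.40 in mice 1 to 4, so it was lowest in mouse 4. Its mean was 0.89 ± 0.33 (SD, n = 4; limma adjusted p = 0.0176), and it was lost without mouse 1, 2 or 3 (limma adjusted p up to 0.0604). The carbonyl reductase gene Cbr2 had 1.67, 0.19, 1.66 and 1.17, with mouse 2 far below the rest, and a mean of 1.17 ± 0.70 (SD, n = 4; limma adjusted p = 0.0421). Cbr2 was lost without mouse 1, 3 or 4. Cyb5r3, a reductase of cytochrome b5, had a mean of 0.47 ± 0.18 (SD, n = 4; limma adjusted p = 0.0299) and was lost whichever mouse was left out. None of these 3 genes was higher in both mice 3 and 4 than in both mice 1 and 2, as the 3 chosen genes were. With mice 1 and 2, and 3 and 4, as a random block, the gene Cyp2b10 alone of the 9 genes still passed (limma adjusted p = 0.0427).

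Cell type markers were set beside the 3 genes to give marker ratios on the same arrays. In bulk RNA such ratios do not show whether cell numbers changed. The part of these cells in the ratios of Fmo1, Fmo2 and Inmt was not tested. Of 112 tested markers, 16 passed above and 16 below 0, thus 14.3% on each side, against 7.69% above and 4.81% below among all genes. The marker lists too were chosen with earlier results of these data known, so their shares are a description and are not independent of the calls. The counts of single lists are best read against these shares. Over all markers, 32 calls became 18, 15 and 12 without mouse 1, 3 and 4, 33 without mouse 2 and 16 with the random block. Of 17 endothelial markers, 9 passed above 0 and 0 below, with list medians of 0.95, 0.77, 0.51 and 0.38 in mice 1 to 4. The 9 calls became 4 without mouse 4, 6 without mouse 3 or with the block, and 7 and 8 without mouse 1 and 2. The medians were highest in mice 1 and 2, where Fmo1, Fmo2 and Inmt were lowest with the arrays not scaled. With the arrays scaled, Fmo2 was lowest in mouse 3. The 3 endothelial markers with the smallest p were Tmem100, S1pr1, for a lipid receptor, and Tek, for an angiopoietin receptor. S1pr1 and Tek had means of 1.03 ± 0.18 and 1.18 ± 0.24 (SD, n = 4; limma adjusted p = 0.00653 and 0.00689). S1pr1 was highest in mouse 1 and Tek in mouse 2. Tmem100 was instead higher in mice 3 and 4 (1.87 and 1.89) than in mice 1 and 2 (1.47 and 1.20).

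Fibroblast and epithelial lists had medians closer to 0. Of 10 markers of alveolar fibroblasts, Cdh11, a cadherin gene (0.83 ± 0.22, SD, n = 4; limma adjusted p = 0.0121), and Limch1 (0.39 ± 0.08, SD, n = 3; limma adjusted p = 0.0470) passed above 0 and 0 below. The list's medians were 0.32, 0.32, 0.12 and -0.05 in mice 1 to 4, again higher in mice 1 and 2. Of 10 markers of adventitial fibroblasts, the dipeptidase gene Dpep1 passed above 0, at 0.84, and the fibroblast surface gene Pi16 below, at -0.48, with a list median of -0.005. Of 13 club cell markers, Cbr2 passed above 0 and the antimicrobial lectin gene Reg3g below, at -1.75 ± 0.53 (SD, n = 4; limma adjusted p = 0.0106). The club cell secretory gene Scgb1a1, named after its value was seen, was at -0.15 ± 0.69 (SD, n = 4; limma adjusted p = 0.727). Of 8 alveolar type II markers, the surfactant gene Sftpa1 passed above 0, at 1.28 ± 0.26 (SD, n = 4; limma adjusted p = 0.00653), and 0 below. The type II medians were 0.16, 0.05, 0.68 and 0.25, so that, as for the 3 genes, mice 3 and 4 exceeded mice 1 and 2. The methyltransferase and methionine cycle medians had this split too. A gene without a value in a mouse was left out of that mouse's median. Of 11 alveolar type I markers, Rtkn2 passed above 0, at 1.19, and the water channel gene Aqp5 below, at -0.35. The type I medians were 0.108, 0.052, -0.1655 and -0.05 in mice 1 to 4, and the club cell medians 0.2525, 0.185, -0.089 and -0.228. Both lists were thus higher in mice 1 and 2, unlike the type II list. Limch1, Pi16 and Aqp5 were lost whichever mouse was left out, Dpep1 without mouse 1 and Rtkn2 without mouse 4. Limch1 had no value in mouse 4, so the fit without that mouse used the same Limch1 values.

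In the ciliated list 0 of 6 genes and in the smooth muscle and pericyte list 0 of 7 passed limma, with 3 and 1 at an unadjusted p under 0.05. With scaled arrays 1 gene of each list passed, and without mouse 2, 1 of the ciliated list. The ciliated medians were -0.25, -0.33, 0.28 and 0.15 in mice 1 to 4, with mice 3 and 4 again above mice 1 and 2. The leukocyte medians, -0.22, -0.25, 0.05 and 0.09, had the same split. Among 9 leukocyte markers, the mannose receptor gene Mrc1 passed above 0, at 0.74 (n = 3), and the calprotectin genes S100a8 and S100a9 below, at -2.28 and -2.08. Mrc1 was lost without mouse 3 or 4 (limma adjusted p up to 0.0772) and S100a9 without mouse 4 (0.0502). S100a8 was lowest in mouse 3, at -3.02, on the array with the widest spread (median absolute deviation of 0.292). Fmo1, Fmo2 and Inmt were highest in that mouse as well, but in mouse 4 with the arrays scaled.

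Striated muscle and fat can be taken out with a lung, and their markers lay far below 0. Of 15 muscle markers 7 passed below 0 and 0 above, and of 6 fat cell markers 4 below and 0 above, against 4.81% below 0 among all genes. The 4 fat cell calls fell to 0 without mouse 1, 3 or 4 and with the random block, with 5 genes at an unadjusted limma p under 0.05 in each of these fits. The 7 muscle calls became 3 without mouse 1 and 2 without mouse 3 or 4 or with the block. The muscle medians were -2.68, -0.65, -2.32 and -1.52 in mice 1 to 4, and the fat cell medians -1.45, -0.12, -2.19 and -1.32. Their lowest members were Tnnc2, a fast muscle troponin gene, at -4.90 (n = 3), and Cidea, a lipid droplet gene, at -2.53 (n = 4). Both lists came closest to 0 in mouse 2. The same pool was on all arrays, and the part of muscle or fat in the ratios of the 3 genes was not tested. Cidea was lost without mouse 1, 3 or 4.

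**Figure D5:**
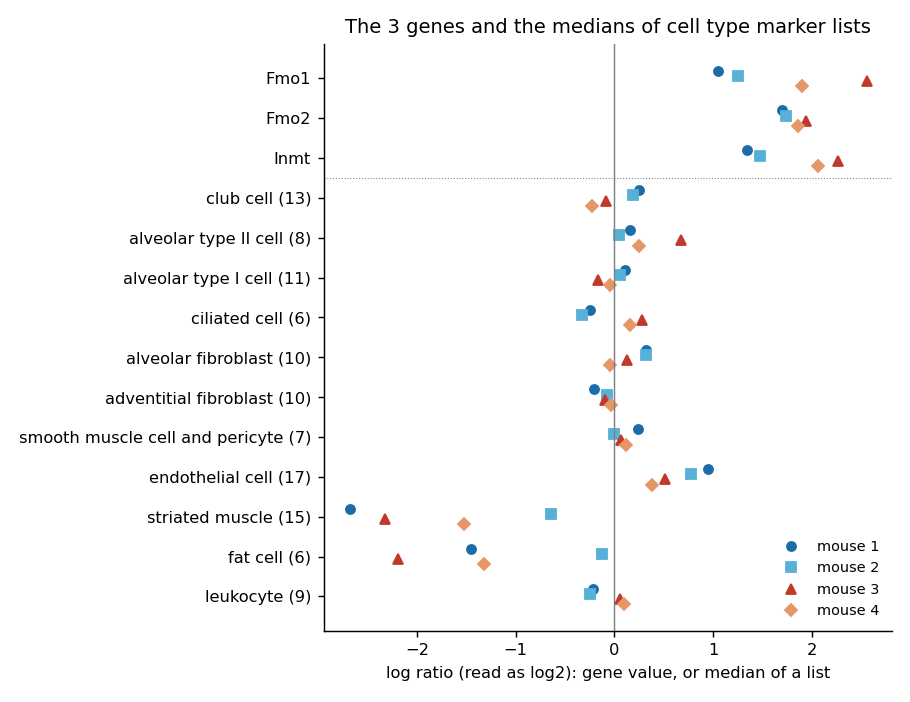
Log ratios (read as log2) of Fmo1, Fmo2 and Inmt (top) and the median of each list of cell type markers (below the dotted line, with the number of genes tested), with 1 symbol per mouse. No list median reaches 1 in any mouse. With the arrays centred and not scaled, as here, endothelial medians are highest in mouse 1 and the 3 genes are highest in mouse 3.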

How the data were processed

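The authors deposited 1 log ratio per spot and array for 4 two-colour arrays, taken as log2, with both signs around medians near 0. The base is not stated: the lowest value, -6.1, would as log10 be a ratio beyond an array's range, but the natural logarithm was not tested. The scanner, dyes, background correction, normalization and direction are not given in the sources used. Of 17280 spots, 9427 to 12136 had a value per array. Signal over background was not used here, and the number of arrays limits precision. Probes were named through the platform's annotation (14722 spots with 1 symbol). Each array was centred on its median (-0.009 to 0.029), probes of a symbol were averaged, and 8384 genes with at least 3 values were tested against 0 with limma 3.58.1 (R 4.3.3; lmFit, eBayes, two-sided, Benjamini-Hochberg over all genes, threshold 0.05). The 1 pool counts as 1 control, so p-values leave out the spread between control mice. They measure only the spread between the 4 arrays, in which differences between mice and between arrays cannot be told apart. The fit was tested on simulated data. Fmo1, Fmo2, Inmt and all gene lists were chosen with earlier results of these data known. Named by rule were all genes of the Fmo and methyltransferase lists with at least 3 values, up to 3 genes with the smallest p among those past the test in each other list, the 5 measured neighbours on each side and the 5 nearest genes by ratio. Alternatives were no centring, scaling to equal spread, other probe summaries, other minimums of values, a random block and leaving out each mouse.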

Additional observations from a re-analysis of the deposited data

Results flagged for a closer look

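Of 54 genes named by rule with a value in each of the 4 mice, 5 had 1 mouse far from the others by Dixon's ratio past its critical value, and chance alone would set apart about 1 in 20 groups. Fmo1, Fmo2 and Inmt were not among them. Cyp2b10 was at 0.396 in mouse 4, against 0.984 to 1.09 in the other mice. Nadk was at 0.694 in mouse 3, against 0.291 to 0.354. Pi16 was at -0.762 in mouse 3, against -0.427 to -0.371. The neighbour of Fmo2, Mettl18, was at 0.093 in mouse 4, against 0.187 to 0.203, and the neighbour of Inmt, 9130019P16Rik, at -0.099 in mouse 1, against -0.363 to -0.333.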

How the results depend on the processing

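Fmo1, Fmo2 and Inmt were chosen for lying above 0 on every array and each had 1 probe with values, so neither leaving out a mouse nor another probe summary could turn their means. Without centring the means were 1.70, 1.82 and 1.80, and with scaling 1.70, 1.83 and 1.81. Without 1 mouse they ranged from 1.40 to 1.90 for Fmo1, from 1.77 to 1.85 for Fmo2 and from 1.63 to 1.93 for Inmt. Scaling changed the order of the mice and the SD of Fmo2. The count of genes past limma, 1048, was 1055 without centring and 1182 with scaling, but 402 with mice 1 and 2, and 3 and 4, as a random block, and 296 to 573 without 1 mouse. The 9 related enzyme genes past the test became 1 with the block and 1 to 3 without 1 mouse, and the 32 markers became 16 with the block and 12 to 33 without 1 mouse. Fewer samples or fewer independent arrays entered those fits. Of 37 named genes past the test other than Fmo1, Fmo2 and Inmt, 14 passed in all 4 fits without a mouse, and 17 were lost with the block, 2 with scaling and 0 without centring. No paired analysis was possible because the arrays form 1 group against 1 pool. Dim spots could not be judged, since no signal or background was used here.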
